A study of Drosophila melanogaster with 4 samples.

Results

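The 10 genes hb, Kr, kni, gt, tll, hkb, cad, oc, ems and btd encode the gap and head gap transcription factors of the Drosophila embryo, and binding of the CG8924 protein was examined around them. They were taken by name from a list and make up 10 of the 13945 protein-coding genes annotated on the 6 chromosome arms. A peak was counted for a gene if its summit lay inside the gene or within 10 kb of either end. The chromatin came from whole embryos, males and females pooled, aged 0 to 24 h, of 1 transgenic line in which CG8924 is fused to GFP at its C terminus. The tagged protein was precipitated with an antibody to GFP, and fragments of 200 to 800 bp were selected. There was 1 group of 4 biological replicates and no second condition, so the values describe binding and no groups were compared. Because the collection spans 24 h and every tissue, the lists do not say in which cells or at which stage a site was occupied.

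Gap genes are switched on in broad bands along the body axis of the early embryo by maternal gradients, and the factors they encode largely repress one another and set the position of the pair-rule stripes. Hunchback, Krüppel, Knirps and Giant act in the trunk, Tailless and Huckebein at both ends, and Caudal in the posterior. Orthodenticle (from oc), Empty spiracles and Buttonhead pattern the head. Their loci are textbook examples of regulation by enhancers that lie outside the promoter.

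The data were peak lists. Each replicate had 30000 peaks, a pooled list made from replicates 2, 3 and 4 had 30000, and the reproducibility-thresholded list was the upper 26.1% of the pooled list by signal. The last peak inside the threshold had a signal of 296.0, as did the first outside it, and the highest had 12610. Peaks are ranked below by the authors' signal within their own list, rank 1 being the highest. Replicate 1 entered neither shared list. Read depth is unknown from these files, so no interval that needs it is given, and all lists were called against the same control.

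The head gap genes oc and btd were the members with a thresholded peak at their own promoter. These 2 of 10 compare with 31.4% of all protein-coding genes. The trunk, terminal and posterior genes and ems had no such peak. Thresholded peaks were found in 7 of the 10 windows, near the share of 72.6% over all protein-coding genes, with 20 summits in all. The windows of the 3 head genes held 13 of the 20, and 7 of these were in the btd window. That window also holds start sites of 3 other genes. Over all 10 windows, the nearest start site was the member's own for 8 of the 20 summits. The windows of Kr, gt and tll held none. The 8 members other than oc and btd each had a weaker pooled summit, below the threshold, within 500 bp of a start site. Among protein-coding genes with a pooled promoter summit, 36.9% had it below the threshold.

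The sequences around the summits that carry these results are shown first, each reaching 50 bases to either side of the summit on the forward strand of the dm6 assembly (Release 6) and read from the RefSeq genome. Capitals mark GAGAG or its reverse complement CTCTC, the core bound by the GAGA factor, and any of the 10 words of 8 bases that were most in excess at thresholded summits. The promoter summits of oc and btd are given because they are the only thresholded ones within 500 bp of a member's own transcription start site (TSS).
oc promoter (chrX:8650914-8651014): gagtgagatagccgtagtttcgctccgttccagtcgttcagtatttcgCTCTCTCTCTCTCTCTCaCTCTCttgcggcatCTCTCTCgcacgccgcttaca
btd promoter (chrX:9693947-9694047): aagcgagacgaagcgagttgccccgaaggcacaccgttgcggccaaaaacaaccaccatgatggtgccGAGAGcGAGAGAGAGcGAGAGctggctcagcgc

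The strongest summit in any member window, upstream of btd, and the strongest distal summits of oc, ems, cad and kni whose windows hold no annotated exon are given next. They are a choice and not all of the distal summits: the GC content of the 12 distal summits ran from 15.8% to 60.4%, and 2 of them, at 58.4% in the oc window and 60.4% in the btd window, were as GC-rich as the own promoters.
btd upstream (chrX:9687693-9687793): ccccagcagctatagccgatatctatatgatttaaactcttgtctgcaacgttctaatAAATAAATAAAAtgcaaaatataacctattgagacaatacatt
oc distal (chrX:8627316-8627416): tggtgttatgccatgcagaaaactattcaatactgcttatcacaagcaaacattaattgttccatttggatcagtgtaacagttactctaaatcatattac
ems distal (chr3R:13907843-13907943): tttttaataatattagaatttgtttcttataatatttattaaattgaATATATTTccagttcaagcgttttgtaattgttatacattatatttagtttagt
cad intron (chr2L:20780917-20781017): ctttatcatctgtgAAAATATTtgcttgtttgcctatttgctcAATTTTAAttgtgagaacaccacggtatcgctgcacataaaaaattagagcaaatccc
kni distal (chr3L:20687557-20687657): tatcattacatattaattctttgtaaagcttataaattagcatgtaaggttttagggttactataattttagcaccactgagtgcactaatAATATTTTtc

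Thresholded promoter peaks were at 2 of the 10 members, against 31.4% of all protein-coding genes, and both were at head genes. For btd, which encodes a zinc-finger factor of the Sp family, the summit lay 189 bp upstream of the single TSS (X, peak 9693711 to 9694187) with a signal of 879 and rank 1708. Its ranks in replicates 1 to 4 were 4236, 1690, 649 and 2711. All 4 replicates thus placed it in their own top sets, meaning as many of a replicate's highest peaks as the thresholded list holds, with replicate 3 the highest and replicate 1 the lowest.

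For oc, which encodes the homeodomain factor Orthodenticle, the promoter summit lay 283 bp upstream of the most upstream of 3 TSSs (X, peak 8650819 to 8651133), with a signal of 699 and rank 2478. Its ranks in replicates 1 to 4 were 4130, 2488, 1991 and 1908. Replicate 1 placed it lowest here too, and replicates 2 to 4 lay close together. When promoters were narrowed to 200 bp, btd alone kept a promoter peak.

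All 10 members had a pooled summit within 500 bp of an own TSS, against 49.8% of protein-coding genes, and for 8 of the 10 it fell below the threshold, against 36.9% of the protein-coding genes with such a summit. The 8 ranked from 9317 (cad) to 18648 (hb) in the pooled list. Over the 10 members the median pooled promoter rank was 10241, against 5533 over the 6944 protein-coding genes with such a summit. The members thus had a listed promoter peak each, mostly a low one. By the layout of the lists each peak has a q-value, a false discovery rate, but how the authors computed it is not given. Among these 8 the q-value ran from 0.000268 at cad and Kr to 0.0744 at hb.

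Promoter ranks of the trunk genes ran from 9319 to 18648. At Kr, a zinc-finger repressor of the central trunk on arm 2R, the pooled summit lay 1 bp from the TSS at rank 9319, with ranks of 7249, 9554 and 4854 in replicates 2, 3 and 4 and no promoter summit in the list of replicate 1. At kni, which encodes an orphan nuclear receptor, the pooled rank was 13507 with the summit 32 bp upstream of a TSS, and the replicate ranks were 21391, 13563, 14285 and 6901 in replicates 1 to 4. Kr and kni were the members below the threshold that any single replicate placed in its top set, Kr in replicates 2 and 4 and kni in replicate 4.

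At gt, which encodes a bZIP repressor, the pooled rank was 18555 with the summit 33 bp upstream, and the ranks were 15344, 24800 and 13424 in replicates 2, 3 and 4. At hb, the zinc-finger factor of the anterior band, the pooled rank was 18648 with the summit 231 bp downstream of the upstream TSS, and the ranks were 16113, 15592 and 11925 in replicates 2, 3 and 4. Neither had a promoter summit in replicate 1. These were the lowest pooled promoter ranks of the 10 members.

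Of the terminal genes, hkb, a zinc-finger repressor, had its pooled promoter summit 214 bp upstream at rank 10730, with ranks of 10213, 11456 and 10606 in replicates 2, 3 and 4. The orphan nuclear receptor gene tll had its summit 325 bp upstream at rank 15752, with ranks of 15010, 10638 and 24489 in the same replicates. Replicate 1 listed neither. Over these replicates the ranks had an SD of 635 at hkb and 7081 at tll (n = 3 each).

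The posterior gene cad, which encodes a homeodomain protein that forms a maternal gradient, and the head gene ems, also a homeodomain gene, were listed in all 4 replicates. The cad summit lay 167 bp upstream at pooled rank 9317 and ranked 15799, 9792, 8664 and 10632 in replicates 1 to 4. The ems summit lay 88 bp upstream at pooled rank 9751 and ranked 16936, 8371, 8481 and 8953. At both genes replicate 1 gave the lowest rank, and the other 3 replicates lay between 8371 and 10632.

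**Figure D1:**
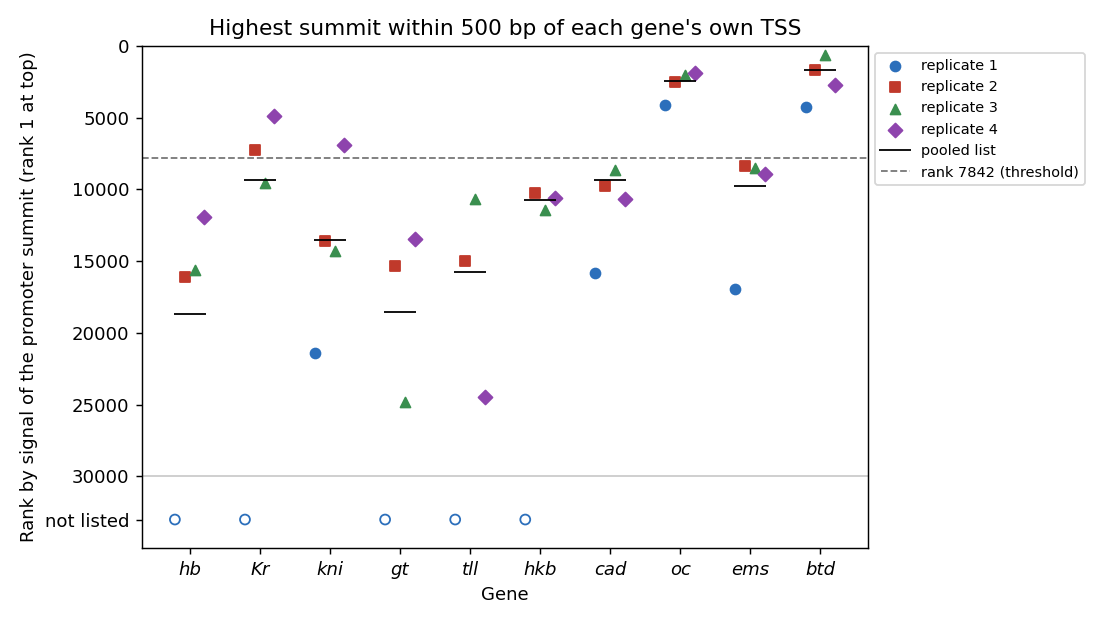
Rank by the authors' signal (vertical axis, rank 1 at the top) of the highest summit within 500 bp of each gene's own TSS, in each replicate list (symbols) and in the pooled list (black bar). The dashed line is the threshold rank, open symbols mark a gene with no such summit in that list, and only oc and btd lie above the line in every list.

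Replicate 1, which had no part in the pooled list, listed a promoter summit for 5 of the 10 members, against 52.1% of protein-coding genes. Replicates 2, 3 and 4 each listed all 10, against 52.4%, 50.6% and 51.3% of protein-coding genes. Among the 8 members whose pooled promoter summit was below the threshold, replicate 1 listed 3 (kni, cad and ems), against 80.5% of the 2561 protein-coding genes in the same position. Replicates 2, 3 and 4 listed all 8, against 86.2%, 80.7% and 81.1%. Of the 6 trunk and terminal genes, only kni was listed by replicate 1. The pooled list was made from replicates 2 to 4, so their listing is partly built in, and the coding genes were not matched to the members in rank. When the top set of each replicate was used, 2 members had a promoter peak in replicate 1 (31% of protein-coding genes), 3 in replicate 2 (30.5%), 2 in replicate 3 (31.4%) and 4 in replicate 4 (31.2%), or 2.75 ± 0.96 (SD, n = 4).

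Distal thresholded summits, more than 500 bp from every annotated TSS, lay in the windows of 6 of the 10 members, against 36.2% of protein-coding genes. With summits of any class the count was 7 of 10, against 72.6% of protein-coding genes, which is near that background. Of the 20 summits 12 (60%) were distal, against 47.2% of all thresholded summits. Another 6 lay within 500 bp of the TSS of a different gene, and 2 were the own promoters of oc and btd. The nearest distal summit to its member's own TSS was 4888 bp away and the farthest 18.2 kb. On the strand of the gene 6 lay upstream and 6 downstream, 1 of them inside the gene itself, in an intron of cad.

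The btd window held the most summits. The 10 windows held 0.771 thresholded summits per 10 kb, against 0.586 over the 6 arms, but the btd window alone held 7 of the 20 and without it the density was 0.551. Per gene, the median density was 0.604 per 10 kb over the 10 members, against 0.727 over the windows of all protein-coding genes, so the members were not denser in thresholded peaks than coding genes in general. The pooled list had 4.55 summits per 10 kb in the windows, against 2.24 over the arms. Of the 118 pooled summits in the windows 16.9% passed the threshold, against 26.1% of the whole pooled list. Against the arms as a whole, the member windows thus held more listed peaks per length and a smaller share that passed. The windows of all protein-coding genes held a mean of 7.12 and a median of 6 pooled summits each. Those of the members held from 5 (gt) to 20 (oc), and window lengths were not matched.

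**Figure D2:**
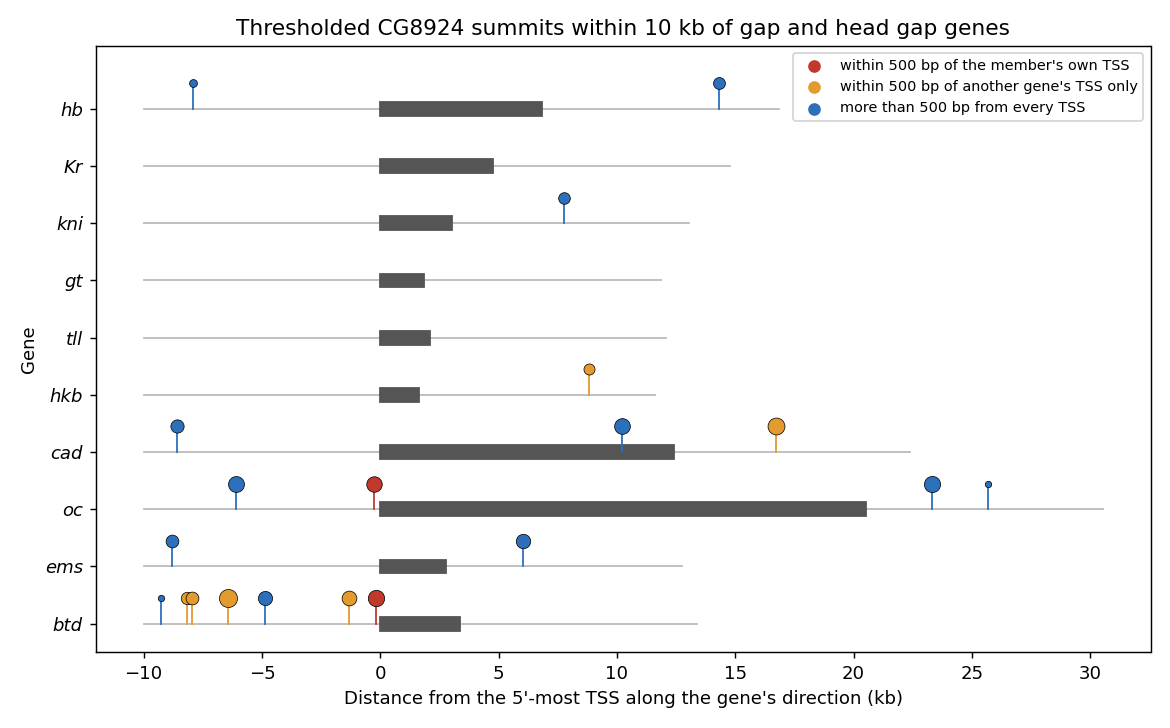
Position of the 20 thresholded summits along each gene's own direction, in kb from its most upstream TSS, with the gene as a dark bar and the window of 10 kb either side as a grey line. Marker size grows with signal rank and colour gives the class. The windows of the 3 head genes hold 13 summits, 7 of them in the btd window, and those of Kr, gt and tll hold none. For 8 of the 20 the nearest TSS is the member's own.

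Around btd 7 summits lay within 9279 bp upstream of the TSS, and 4.99% of protein-coding genes had as many or more in their window. The highest, at rank 194 with a signal of 2828, was 6443 bp upstream of btd and 446 bp upstream of lncRNA:CR42657, which encodes a long non-coding RNA (X, peak 9687473 to 9687951). It ranked 277, 168, 202 and 117 in replicates 1 to 4, a narrow spread, and was the only member summit in the top 10% of the thresholded list. A distal summit 4888 bp upstream of btd ranked 3498, and one 1324 bp upstream, 445 bp from lncRNA:CR44016, ranked 3084. The summit near lncRNA:CR44016 ranked 6935 in replicate 1 and from 1511 to 2490 in replicates 2 to 4.

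The other 3 summits in the btd window belonged in position to nej, which encodes the histone acetyltransferase CBP. They ranked 4502, 4767 and 7802 and lay 429, 350 and 760 bp from TSSs of nej. The summits at ranks 4502 and 4767 lie in adjoining peaks that the same peak of each replicate overlapped, with ranks of 1795, 8188 and 4149 in replicates 1, 2 and 3. Replicate 4 had no peak there, its nearest summit being 412 bp and 624 bp away from them at rank 5018. The summit at rank 7802, the lowest of the 20, was supported by 3 replicates.

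The oc window held 3 distal summits besides the promoter, and all 4 had oc as the gene of the nearest TSS. One lay 6091 bp upstream of the most upstream TSS (X, peak 8656605 to 8656921, rank 2108) and ranked 2611, 1407, 3546 and 2783 in replicates 1 to 4. Another lay 2793 bp past the end of the gene (X, peak 8627223 to 8627547, rank 1878) and ranked 2564, 1664, 2136 and 1975, the narrowest spread of the distal summits in the windows. The third, 5170 bp past the end, had rank 7797, and its replicate ranks were 17521, 10917, 3835 and 6832. The first 2 were thus in the top set of every replicate and the third in those of replicates 3 and 4.

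The ems window held a summit on either side of the gene, both with ems as the nearest TSS. The downstream summit lay 3273 bp past the end (3R, peak 13907773 to 13907997, rank 3320) and ranked 4243, 3190, 3697 and 3269 in replicates 1 to 4. The upstream summit lay 8777 bp before the TSS (3R, peak 13892955 to 13893180, rank 4538) and ranked 5832, 3676, 5608 and 4249. Both were supported by all 4 replicates although the ems promoter itself did not pass the threshold.

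In the cad window the intronic summit (2L, peak 20780818 to 20781118, rank 2291) ranked 2905, 1851, 3159 and 2618 in replicates 1 to 4. A higher summit at rank 1244 lay 4309 bp past the end of cad and 212 bp upstream of Pomp, the proteasome maturation factor gene, and ranked 1995, 701, 2226 and 1407. A summit at rank 4196 lay 8589 bp upstream of cad in an intron of dia, which encodes the formin Diaphanous. All 3 were supported by every replicate, and none had cad as the gene of the nearest TSS.

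The trunk and terminal windows held 4 summits, all below the median of the thresholded list by rank. With flanks of 20 kb the highest rank in the hb window was 1386, against 5101 with 10 kb. In the kni window, a summit 4723 bp past the end of the gene (3L, peak 20687367 to 20687846, rank 5249) ranked 7095, 5777, 2942 and 7297 in replicates 1 to 4. The hb window had a summit 7488 bp past the end of the gene (3R, peak 8683369 to 8683584, rank 5101), with replicate ranks of 7006, 4437, 6486 and 5046. Its nearest TSS was that of CG44227, 1684 bp away, while the nearest hb TSS was 11108 bp away. A second hb summit, 7916 bp upstream, had rank 7242 and fell outside the top sets of replicates 1 and 2. The TSS nearest to this second summit was that of CG8112, 7195 bp away. The hkb window had 1 summit at rank 5628, 7192 bp past the end of the gene and 8823 bp from its TSS. It lay in the 5′ UTR of CG1103, 68 bp from the TSS of CG1103.

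The member summits were as high as thresholded peaks in general. Their median rank was 3847, against 3922 over all thresholded peaks, and 10 of the 20 lay above the median of the list. Distal summits had a median rank of 4367 in the windows, against 4128 over all distal summits.

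All 4 replicates supported 15 of the 20 summits, against 64.2% of thresholded peaks, where support means that a peak of the replicate's own top set overlaps by at least 1 bp. Replicate 1 supported 18 of the 20, against 85.9%. Replicates 2, 3 and 4, from which the pooled list was made, supported 16, 19 and 18. Their shares over all thresholded peaks are not given, so these 3 counts cannot be set against the list. The 5 without full support were the second hb summit, the farthest oc summit and the 3 near nej. Of the 18 summits with a peak in all 4 lists, replicate 1 gave the lowest rank for 10 (55.6%), against 27.4% of the 7653 thresholded peaks listed in all 4. The SD of the 4 replicate ranks ran from 67 at the highest btd summit to 5923 at the farthest oc summit, with a median of 1280. Smaller gaps between ranks in the thresholded list lie within that spread.

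**Figure D3:**
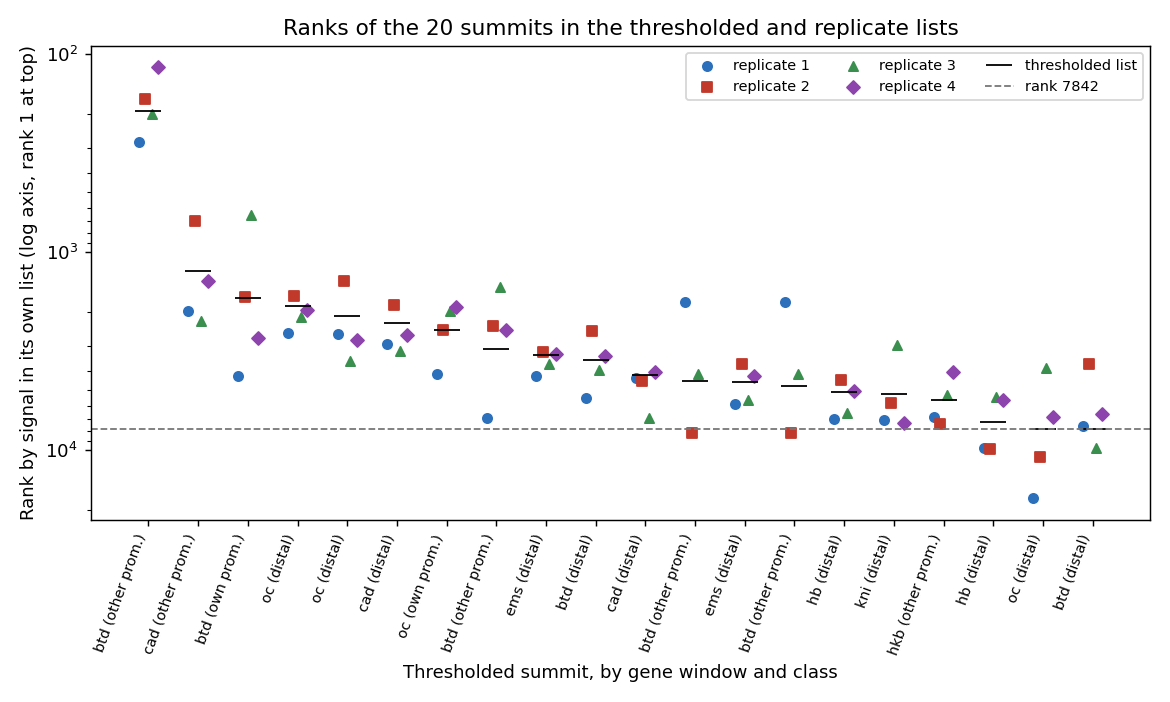
Rank by signal (log axis, rank 1 at the top) of each of the 20 thresholded summits in the thresholded list (black bar) and of the highest overlapping peak in each replicate list (symbols). The dashed line is the threshold rank, and the 10 highest summits lie above it in every replicate.

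The own-promoter summits were both GC-rich. Within 50 bp of the summit the GC content was 61.4% at the btd promoter and 53.5% at the oc promoter, against a median of 34.7% over all 4137 promoter summits. Both held GAGAG, which was in 11.6% of promoter summits, 11.0% of distal summits and 13.8% of windows 500 bp away. The only other member summit with GAGAG was the one near lncRNA:CR44016, at 54.5% GC. Over the 20 member summits the median GC content was 32.7%, the same as over all thresholded summits, while 5 of the 20 had 50% GC or more, against 8.26% of all.

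The 12 distal summits had a median GC content of 29.2%, against 30.7% over all 3705 distal summits and 43.6% in flanking windows. The 10 words of 8 bases most in excess at thresholded summits relative to windows 500 bp to each side held only A and T, led by AAATAAAT, found at 7.66% of summits and 3.37% of flanks on either strand. At least 1 of the 10 was at 8 of the 20 member summits (40%), against 39.7% of all thresholded summits, so the members were close to the list as a whole. Words overlap each other in such sequence, and the highest btd summit held AAATAAAT and AAATAAAA in the same stretch.

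Words recognised by factors of the gap network, and a word of the separate factor DREF, were counted at the same summits. With 20 summits most of these words would be at fewer than 1 at their share over the whole list. An absence there thus says little. TAATCC, bound by Bicoid and Orthodenticle, was at 0 of the 20 and at 3.01% of all thresholded summits. The Krüppel word GGGTTAA (0.791% of all summits), the Tailless word AAGTCAA (2.01%), the Giant-type word TTACGTAA (0.140%) and TATCGATA of the factor DREF (2.03%) were also at none. The Caudal word TTTATG was at 2 of the 20, the cad intron and a nej summit, and at 12.7% of all. The run TTTTTTT, used for Hunchback, and the Zelda word CAGGTA were each at 1, the hkb window summit, and at 11.0% and 1.94% of all. Both strands were searched over the bases within 50 bp of each summit, and a match is a description of sequence only.

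The other genes of the segmentation pathway were counted in the same way. Over all protein-coding genes 31.4% had a thresholded promoter peak, 72.6% a thresholded summit in the window and 49.8% a pooled promoter summit. Of the pair-rule genes, the next tier, 1 of 9 had a thresholded promoter peak (hry, the hairy gene, at rank 4422), and 6 of 9 had a thresholded summit in the window. Homeotic genes had 3 of 8 promoters with a thresholded peak, lab at rank 6858, Antp at 7101 and Dfd at 7798, and all 8 had one in the window. Pooled promoter summits were present at 8 of 9 pair-rule and 7 of 8 homeotic genes. Of these pooled promoter summits 1 of 8 at pair-rule and 3 of 7 at homeotic genes passed the threshold, against 2 of 10 at the members. Among protein-coding genes with such a summit, 36.9% had it below the threshold.

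Among maternal and terminal regulators 8 of 12 had a thresholded promoter peak, led by the corepressor gene gro at rank 452, cic at 1751, pum at 1941 and bcd at 2659. Among further gap-like and head genes 6 of 9 had one, led by cnc at rank 1547, fkh at 3330, Optix at 4800 and D at 7370. All 9 of these had a pooled promoter summit, as the 10 members did. The windows differ in length with the genes, and these lists of 8 to 12 genes were compared by counts alone, with no test.

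**Figure D4:**
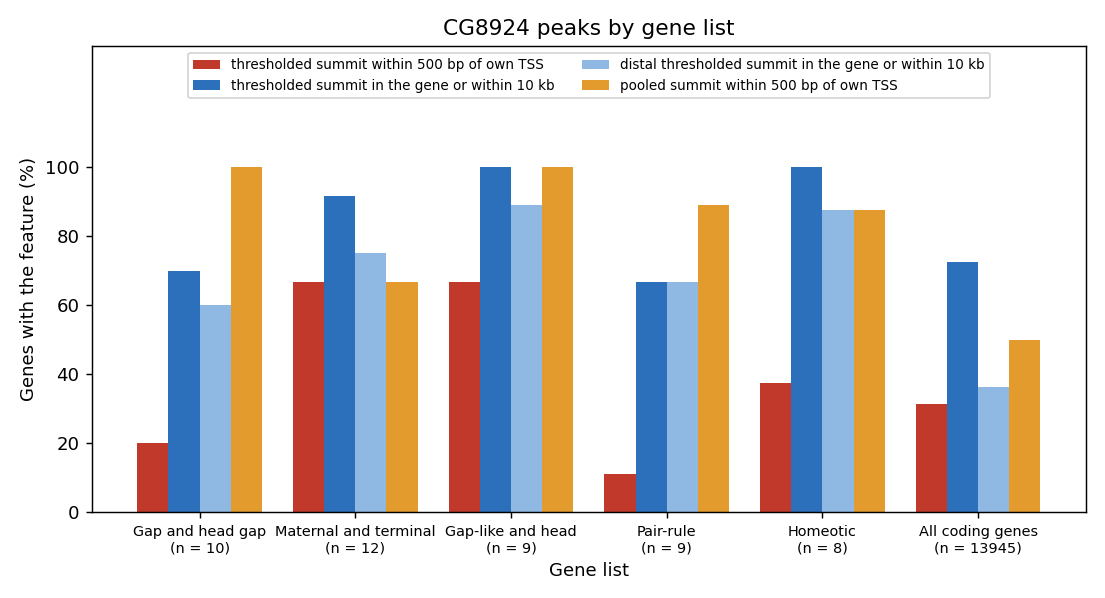
Percentage of genes in each list (horizontal axis, n in brackets) with a thresholded summit at an own promoter, with any or a distal thresholded summit in the gene or within 10 kb, and with a pooled summit at an own promoter. The gap and head gap genes stand at 20% for thresholded and 100% for pooled promoter summits, against 31.4% and 49.8% of all coding genes.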

How the data were processed

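Peak lists from anti-GFP ChIP of 4 replicates of CG8924-GFP embryos were analysed, on dm6 per the labels. The peak caller is not given in the sources used here, nor is the aligner. The authors' deposited signal is a height per peak whose scale differs between lists, so it was used for ranking inside each list. Column 9, by its layout the authors' −log10 q-value, was converted to q. Which replicates made each list comes from the notes the authors deposited with them. Genes and TSSs came from Ensembl release 115 (18164 genes, 23581 distinct TSSs, transposable elements left out) and bases from the RefSeq genome of the same assembly. The summit was column 2 plus column 10. Promoter summits lay within 500 bp of a TSS. Windows, overlaps and words were computed with Python 3.11.15, NumPy 2.4.6, pandas 2.3.3 and matplotlib 3.10.9, and the promoter, window and word counts were tested on simulated data (the overlaps were not). No test between groups was possible with 1 group. A replicate rank is that of its highest peak overlapping by at least 1 bp. The annotation lists nos as nanos and h as hry. Named genes were the 10 members, the genes nearest their summits and up to 4 genes with a promoter peak of each list. Printed sequences were own-promoter summits and highest distal summits, leaving out windows with exons, plus the highest btd summit, added after its rank was seen. The hb and btd distal summits that met the same rule, at 24.8% and 60.4% GC, were not printed. Excess words offset from each other by at most 2 bases counted as 1 word. Tried alternatives changed promoter size, flank, list, overlap and replicates. Members, lists and words were chosen with earlier results of these data known.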

Additional observations from a re-analysis of the deposited data

Results flagged for a closer look

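Of 23 sets of 4 replicate ranks examined for a value far from the rest, chance alone would mark about 1 in 20. The promoter ranks of oc and btd were counted both as window summits and as promoters, so not all 23 sets are distinct. The ems promoter summit stood apart in replicate 1, at rank 16936 against 8371 to 8953 in the others, a gap of 0.932 of the whole range. The cad summit in the dia intron stood apart in replicate 3, at rank 6896 against 4055 to 4498, a gap of 0.844 of the range.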

How the results depend on the processing

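Depth is unknown and there was 1 group, so the counts carry no test. With each replicate left out, only peaks supported by the other 3 were counted. Members with a promoter peak stayed at 2, members with a peak within 10 kb at 7 and with a distal peak at 6. These counts could not move, because they were already 2, 7 and 6 when support by all 4 replicates was required. Summits in the windows came to 15 to 16, which under this rule are the same peaks as the fully supported ones. The distal share came to 60% to 62.5%. Promoter peaks numbered 1 with 200 bp either side and 4 in replicate 4's own list. Members with any peak numbered 4 above the median of the list, and 4 when the nearest TSS had to be the member's own, where 3 had a distal peak, 8 summits were left, 75% of them distal, and 7 fully supported. Summits numbered 9 with 5 kb flanks, 38 with 20 kb and 10 above the median. The distal share was 90% and 55% with promoters of 200 and 1000 bp, 55.6% and 55.3% with flanks of 5 and 20 kb, 50% above the median and 52.6% in replicate 2's own list. Requiring overlap of 50% of both peaks left 8 fully supported. Narrower windows and stricter rules count fewer peaks by construction, and the cause of the shifts in single replicates was not tested. Shares over all protein-coding genes or all summits are not given for these alternatives, except for promoter peaks in each replicate's own list. The changed counts thus cannot be set against the shares of 31.4%, 72.6%, 36.2% and 47.2% given for the main rules. Another 61 values stayed within 1.5 times or the spread between replicates. Leaving out btd, an alternative chosen after seeing the data, lowered the density to 0.551 per 10 kb, against 0.771. The highest rank was 1386 for hb (against 5101) and 1812 for ems (against 3320) with 20 kb flanks, and 1708 for btd (against 194) with 5 kb. With 20 kb flanks gt and tll gained a thresholded peak, at ranks 7048 and 3632, and Kr had none. No value could be given for hb and hkb with 5 kb.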

Other observations

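The 3 windows without a thresholded peak differed in their weaker peaks. Kr had 13 pooled summits, the best being its promoter at rank 9319, while tll had 7 with the best at rank 10749 and gt had 5 with the best at rank 18555. The oc window, the longest, held 16 pooled summits below the threshold besides its 4 thresholded ones, with the best of the 16 at rank 10520. No other gene had a TSS in the windows of Kr, kni, tll, oc and ems.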
